A study of Mus musculus with 31 samples.

Results

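Lungs of mice taken 4 h after an injection of oleic acid into a tail vein were compared with lungs taken 1 h after it. The comparison rests on 3 arrays at each time, 6 of the 31 arrays of the series, chosen by the titles of the arrays and by no measured value. All mice were female C57BL/6 (C57Bl/6J in the protocol), 6 weeks old and with no altered allele named, and were anaesthetised with xylazine and ketamine. The dose of oleic acid was 1.2 µl for each g of mouse, in a volume of 200 µl. Control mice were anaesthetised in the same way and received 200 µl of physiological serum, called saline here, and 3 saline arrays of 1 h and 2 of 4 h are given beside the oleic acid values. Each array held RNA of 1 whole lung of 1 mouse, so n is a number of mice, and the labels give neither the time of day of an injection nor an uninjected mouse.

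Oleic acid is the fatty acid most often used to injure the lung through the blood. After an intravenous dose it lodges in the pulmonary capillaries, damages endothelium and the alveolar lining, and fills the air spaces with protein-rich fluid within hours. In the first hours of any such stress a lung typically passes through a wave of immediate early transcription factors, then through induction of cyclooxygenase and of enzymes that detoxify oxidants, while stress hormones from the adrenal gland act on the same cells. Cells of the blood that pass through or rest in the lung, among them B cells, T cells and natural killer cells, leave or enter it over the same hours.

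Both times lay on different slides. Slide 1 held all 1 h arrays and slide 3 held all 4 h arrays, whichever the injection, so within oleic acid lungs time and slide cannot be told apart. Levels are log2 processed signals minus the 75th percentile of their array, and a difference is 4 h minus 1 h on that scale, with its moderated 95% interval. The share of spots well above background was 60.2%, 76.1% and 64.1% on the 1 h arrays and 57.4%, 51.2% and 55.6% on the 4 h arrays. Oleic acid 1 h replicate 2, the array with 76.1%, stood apart from the other two of its group: its levels correlated with theirs across features at 0.943 and 0.959, and theirs with each other at 0.985. The means over the 26 measured alveolar type 2 markers lay between 4.34 and 4.39 at 1 h and between 4.34 and 4.48 at 4 h, and those over 28 endothelial markers between 3.35 and 3.46 and between 3.21 and 3.35, so the defining markers of lung tissue were present on all 6 arrays.

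Of 29298 tested features (16662 carry a current symbol), 404 were higher at 4 h (1.38% of all tested) and 508 were lower (1.73%) at an adjusted p under 0.05 (limma's moderated test with Benjamini-Hochberg adjustment, 3 mice against 3). Of the risers 180 were at least 2-fold higher, and of the fallers 161 were at least 2-fold lower. The median difference over all features was -0.09. With each array centred on its median in place of its 75th percentile, the median of all features was 0.18, and 11 features were higher and 2 lower. Arrays of both times that did not overlap were common, called or not: 9.55% of all features lay higher on every 4 h array and 14.7% lay lower. Passing features were brighter than most, with a median level of 0.52 for those higher and 0.13 for those lower against -1.07 for all. Because no oleic acid time spanned both slides, each count describes 3 mice of slide 3 against 3 mice of slide 1.

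**Figure D1:**
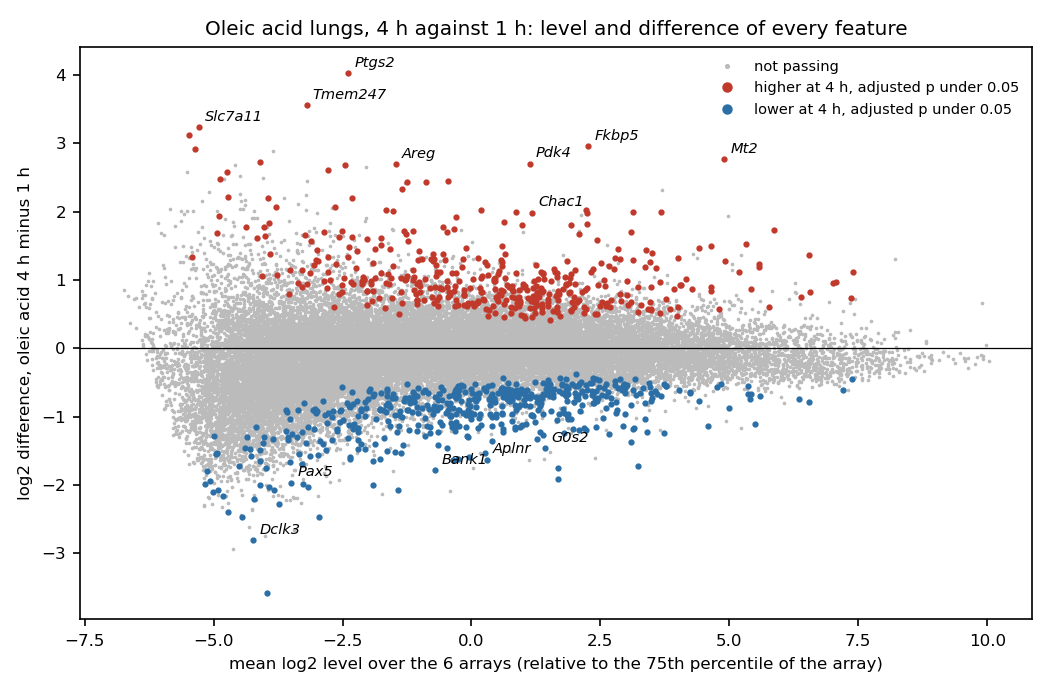
Log2 difference between oleic acid lungs at 4 h and at 1 h (vertical axis) against the mean log2 level over the 6 arrays (horizontal axis, minus the array's 75th percentile) for all 29298 features tested. Red points are the 404 features higher at 4 h and blue points the 508 lower at an adjusted p under 0.05, grey points did not pass, and Ptgs2 lies at the top with a difference of 4.03.

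The largest difference of a gene above background on every 4 h array was that of Ptgs2, the inducible cyclooxygenase that makes the precursor of all prostaglandins and thromboxanes. Its level was -3.92, -4.77 and -4.52 on the 1 h arrays and -0.18, -0.87 and -0.07 on the 4 h arrays. All 3 mice at 4 h stood far above all 3 at 1 h, where only 1 array had it well above background, so that the fitted rise of 4.03 (3.50 to 4.56, adjusted p = 5.12e-08) starts from signal near the limit of detection. Levels at the hours between were graded, with -3.14 and -2.68 at 1.5 h and -1.16 and -1.17 at 3 h. Those arrays entered the test only through its estimate of spread. In saline lungs Ptgs2 also rose, from -4.06, -4.56 and -4.20 to -1.10 and -1.09 (3.17, adjusted p = 1.25e-05). Every oleic acid lung at 4 h lay above both saline lungs of that time, while at 1 h both treatments overlapped.

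A pair of prostanoid receptors went the other way. Ptger1, a prostaglandin E2 receptor that signals through calcium, stood at -0.17, -0.13 and -0.50 at 1 h and -1.67, -1.12 and -1.85 at 4 h, without overlap, a fall of 1.28 (interval -1.67 to -0.89, adjusted p = 0.00169). Tbxa2r, the thromboxane receptor of platelets and smooth muscle, fell by 1.14 (interval -1.63 to -0.65, adjusted p = 0.015), from 0.86, 1.24 and 0.77 to -0.28, -0.01 and -0.25. These were the only members lower at 4 h among 25 measured genes of prostanoid and leukotriene handling, and Ptgs2 was the only one higher, beside 1.73% and 1.38% of all features. Their saline differences were smaller, -0.41 and -0.42, and neither passed there (adjusted p = 0.358 and 0.475). The change after oleic acid minus that after saline was -0.87 (-1.46 to -0.28) and -0.72 (-1.455 to 0.02), and neither of these passed. Within oleic acid lungs Ptgs2 and Ptger1 passed with each of the 6 arrays left out in turn. Tbxa2r did not pass without oleic acid 1 h replicate 2 (adjusted p = 0.101), 4 h replicate 1 or 4 h replicate 3. The median of the 25 was -0.17, and 0.10 after median centring.

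Genes known to be induced by glucocorticoids, together with the metallothioneins, formed the list with the highest median. Of 25 measured, 9 rose (36%, beside 1.38% of all features) and 0 fell, and the median difference was 1.12 against -0.09 over all features. The 9 were Sgk1, Pdk4, Fkbp5, Mt2, Hif3a, Cdkn1a, Klf15, Mt1 and Dusp1. Promoters of 2 of them are shown because they hold a full glucocorticoid response element, the palindromic site that the hormone-bound receptor recognises. Capitals mark the match to the letters GNACA and TGTNC with any 3 bases between them, searched on both strands after values were seen, in windows from 250 bases before to 50 after each annotated start (RefSeq, GRCm38.p6). The Sgk1 stretch is chr10:21993640-21993789 on the + strand, from 1 of 6 windows of that gene, with the match starting 188 bases before the start, and the Mt1 stretch is chr8:94178939-94179088 on the + strand, with the match 94 bases before it.
Sgk1: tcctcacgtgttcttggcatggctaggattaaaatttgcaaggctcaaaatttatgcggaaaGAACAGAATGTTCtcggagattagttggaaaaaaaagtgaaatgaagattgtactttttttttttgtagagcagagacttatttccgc
Mt1: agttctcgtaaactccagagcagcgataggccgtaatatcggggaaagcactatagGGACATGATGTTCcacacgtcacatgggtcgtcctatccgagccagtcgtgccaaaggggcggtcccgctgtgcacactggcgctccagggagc
Such a match was present in 0.475% of all 32851 windows and in 0.477% of the 12995 tested genes with a window. It was present in 3 of the 221 genes higher (1.36%) and 1 of the 264 genes lower (0.379%) at 4 h that had a window. These letters mark a sequence in the genome and not a bound receptor.

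Fkbp5, a cochaperone that dampens the glucocorticoid receptor, rose by 2.96 (1.81 to 4.11, 7.78-fold, adjusted p = 0.00797). Its levels were 0.57, 0.23 and 1.57 at 1 h and 3.85, 3.27 and 4.12 at 4 h. Even the lowest lung of 4 h was well above the highest of 1 h, although the 1 h arrays differed among themselves by more than 1 unit. Both metallothioneins, which bind zinc and copper, were abundant: Mt2 went from 3.29, 3.30 and 3.94 to 6.03, 6.88 and 5.93 (difference 2.77, adjusted p = 0.0155). Mt1 went from 4.92, 4.91 and 5.19 to 6.47, 7.50 and 6.23 (difference 1.73, adjusted p = 0.0413). Neither gene overlapped between times. Oleic acid 4 h replicate 2 was the highest lung for both.

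Sgk1, a kinase that raises sodium uptake by keeping channels at the cell surface, rose by 1.32 (0.92 to 1.73, adjusted p = 0.00169), with levels of 2.14, 1.73 and 2.51 at 1 h and 3.54, 3.56 and 3.25 at 4 h. The 3 lungs at 4 h were close together and clear of those at 1 h. Hif3a, a member of the hypoxia factor family that glucocorticoids raise, rose by 2.02 (adjusted p = 0.0166), and Klf15, a transcription factor of amino acid and lipid use, by 1.92 (adjusted p = 0.0419). At 1 h Klf15 ranged widely, with -1.21, -2.42 and -0.15, while its 4 h levels of 0.72, 0.65 and 0.62 were nearly equal. Saline lungs gave a median difference of 1.22 for the same 25 genes, with 5 called higher. Without oleic acid 1 h replicate 2 the list kept a median of 0.92, and 2 members passed, which were Sgk1 (adjusted p = 0.0175) and Pdk4 (0.0255), while Fkbp5 (0.0619) and Mt2 (0.0872) did not. Mt1 lost its call whichever of the 6 arrays was left out, with an adjusted p of up to 0.161. With slide as a fixed term, estimated from the groups that span slides, the median of the list was -0.07, with Hif3a at -0.0024, Fkbp5 at -0.15 and Klf15 at -0.67.

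Among immediate early genes, the transcription factors and phosphatases that answer a stimulus without new protein synthesis, 5 of 28 rose (17.9%, beside 1.38% of all features) and 0 fell, with a median of 0.50. They were Maff, Fos, Egr1, Dusp1 and Ccn2, the last named after its value was seen. The 4 promoters below, of Maff and Dusp1 and of Areg and Has1 described further on, hold a whole cAMP response element, the site of the factor CREB. They are shown because its letters were found in 14 of 221 genes higher at 4 h (6.33%) and 3 of 264 lower (1.14%), beside 3.11% of the 12995 tested genes with a window and 1.79% of all windows. Capitals mark TGACGTCA, which reads the same on both strands. The stretches are chr5:91139449-91139598 (+ strand) for Areg, chr17:17855189-17855338 (- strand) for Has1, chr15:79347370-79347519 (+ strand) for Maff and chr17:26508473-26508622 (- strand) for Dusp1, each the 150 bases before the start, with the match starting 61, 83, 29 and 143 bases before it.
Areg: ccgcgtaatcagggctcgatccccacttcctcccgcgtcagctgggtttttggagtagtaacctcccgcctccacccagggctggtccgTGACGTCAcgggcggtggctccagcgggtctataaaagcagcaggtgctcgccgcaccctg
Has1: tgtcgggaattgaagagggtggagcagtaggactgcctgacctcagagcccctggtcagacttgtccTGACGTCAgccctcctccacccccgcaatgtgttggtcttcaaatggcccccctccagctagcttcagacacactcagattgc
Maff: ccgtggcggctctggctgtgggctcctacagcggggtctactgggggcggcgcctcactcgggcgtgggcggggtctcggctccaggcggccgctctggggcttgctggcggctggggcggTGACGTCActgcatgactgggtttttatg
Dusp1: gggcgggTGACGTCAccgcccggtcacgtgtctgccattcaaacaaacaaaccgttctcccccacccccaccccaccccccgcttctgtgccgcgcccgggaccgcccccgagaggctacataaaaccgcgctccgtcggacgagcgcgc
The other searched letters were an E-box (CACGTG), present in 11.3% of genes higher and 10.2% of genes lower at 4 h, a D-box (TTATGNAA), in 0.905% and 4.17%, and a heat shock element (GAA, TTC and GAA, each 2 bases apart), in 0% and 0.379%. Genes tested held them at 10.6%, 2.95% and 0.554%, and no test was made of any of these shares.

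Maff, a small Maf factor that pairs with Nrf2 and related proteins, rose by 2.00 (1.38 to 2.62, adjusted p = 0.00169), from -0.28, -0.71 and 0.58 to 1.75, 2.24 and 1.60. No lung of 4 h overlapped with 1 h, and Maff passed with each array left out in turn. Fos, a subunit of the AP-1 factor, stood at -1.70, -2.03 and -1.30 at 1 h and at 1.18, 0.19 and 0.94 at 4 h (difference 2.44, 1.35 to 3.54, adjusted p = 0.0168). Egr1, a zinc finger factor induced by stretch, growth factors and injury, stood at 0.30, -0.06 and -0.04 and 2.15, 1.21 and 2.28 (difference 1.81, 0.98 to 2.65, adjusted p = 0.0193). For both factors the 4 h lungs lay wholly above the 1 h lungs. Dusp1, a phosphatase that switches off stress kinases, rose by 1.16 (adjusted p = 0.0315) and Ccn2, a matricellular growth factor partner, by 0.90 (adjusted p = 0.0445). Fos, Egr1, Dusp1 and Ccn2 did not pass without oleic acid 1 h replicate 2 (adjusted p = 0.102, 0.102, 0.191 and 0.261), nor without 4 h replicate 1 or 4 h replicate 3.

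On the few arrays of the hours between, which are of other mice, part of this group stood higher at 3 h than at 4 h. At 3 h, on 1 array of slide 2 and 1 of slide 3, Egr1 stood at 4.17 and 3.73, above every lung of 1 h and 4 h. Dusp1 stood at 4.48 and 4.85 and Fos at 2.79 and 3.03, again above all 6 compared lungs. Nr4a1, an orphan nuclear receptor and one of the fastest immediate early genes, was at 7.34 and 6.95 at 3 h but at 3.83, 4.04 and 3.67 at 1 h and 3.69, 3.85 and 3.65 at 4 h, so that the 4 h minus 1 h difference was -0.12 (-1.01 to 0.77) and did not pass. Atf3, a stress-induced member of the same class, reached 3.45 and 2.16 at 3 h, with -0.22, -0.15 and -0.16 at 1 h and 1.17, -0.01 and 1.83 at 4 h, and the difference of 1.17 did not pass (adjusted p = 0.147). The mean over all 28 measured immediate early genes was between 0.82 and 1.10 at 1 h, 1.14 and 1.25 at 1.5 h, 2.61 and 2.74 at 3 h, and 1.59 and 1.67 at 4 h. No test was made over the intermediate times.

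**Figure D2:**
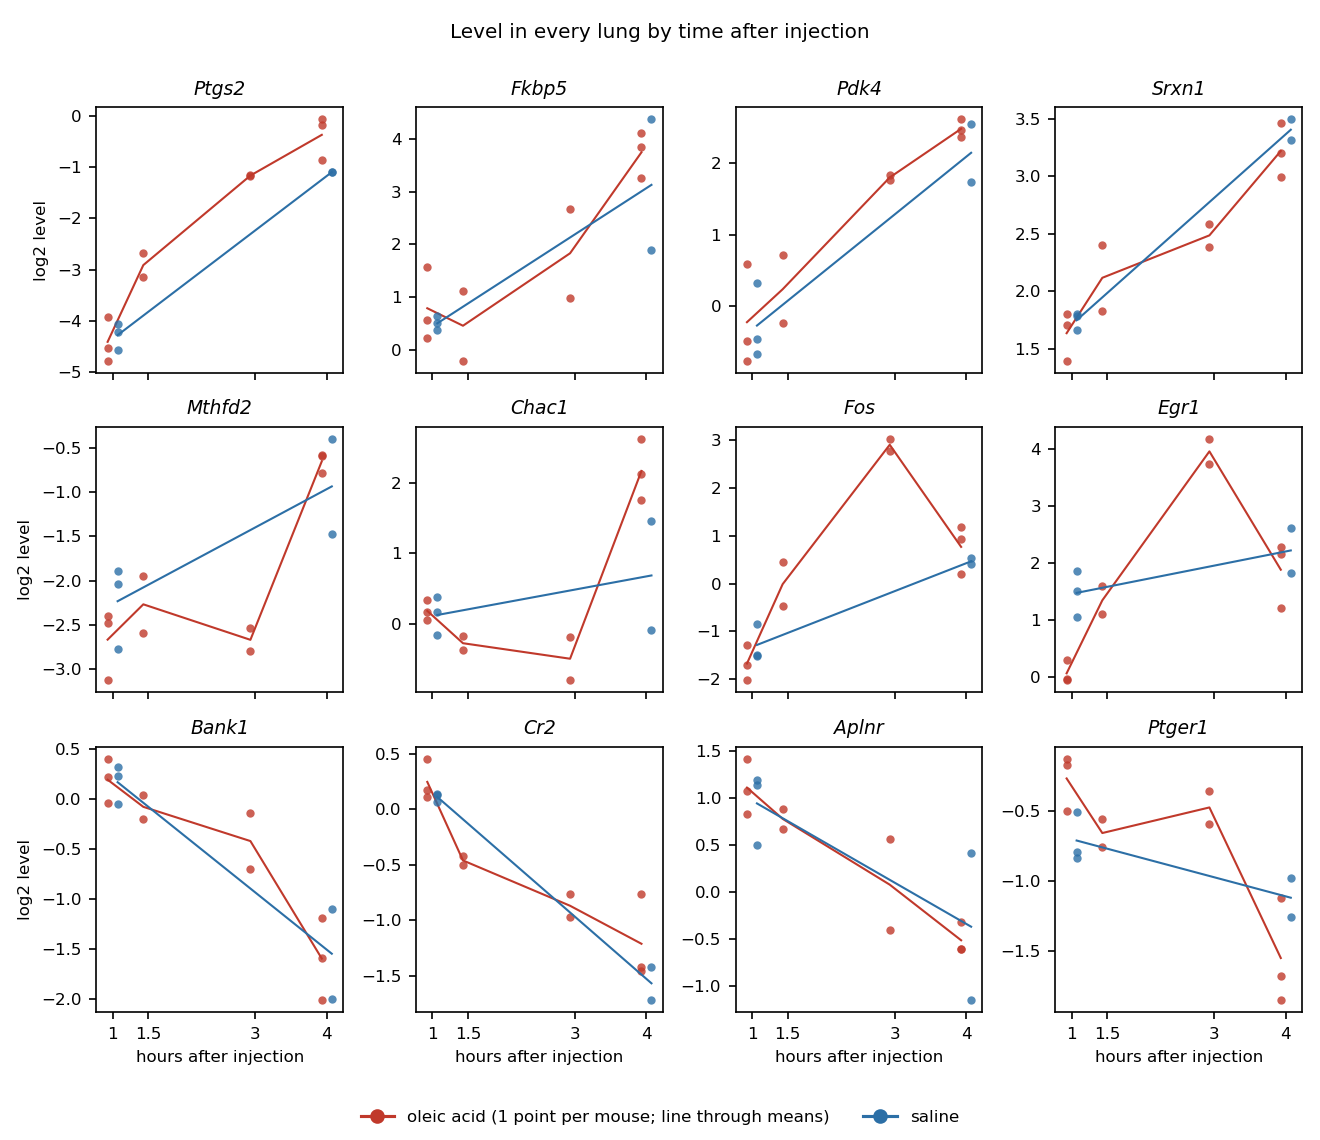
Log2 level (vertical axes, minus the array's 75th percentile) of 12 genes against hours after injection (horizontal axes), 1 point per mouse, red for oleic acid and blue for saline at 1 h and 4 h, with lines through the group means. Ptgs2 climbs over all 4 times, Fos and Egr1 are highest at 3 h, Mthfd2 and Chac1 are raised at 4 h and not at 3 h, and Bank1 and Cr2 have their lowest mean at 4 h.

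Antioxidant genes controlled by Nrf2, the factor that answers electrophiles and oxidants, rose in part: 5 of 30 measured rose (16.7%, beside 1.38% of all features) and 0 fell, with a median of 0.28. Srxn1, sulfiredoxin, which repairs over-oxidised peroxiredoxins, went from 1.71, 1.40 and 1.81 to 2.99, 3.46 and 3.20, a rise of 1.58 (1.17 to 1.99, adjusted p = 0.000626). Txnrd1, the cytosolic thioredoxin reductase, went from 2.97, 2.90 and 3.11 to 4.16, 4.13 and 4.24, a rise of 1.18 (0.84 to 1.52, adjusted p = 0.00124). In both genes the spread among the mice of a time was far smaller than the gap between times. Gclc, the catalytic subunit that limits glutathione synthesis, went from 3.75, 3.34 and 3.93 to 4.74, 5.67 and 5.02 (rise 1.47, adjusted p = 0.00509), and its partner Gclm, named after its value was seen, rose by 1.02 (adjusted p = 0.0484). Hmox1, the inducible haem oxygenase, lay higher on all 4 h arrays, with 2.30, 2.65 and 2.66 against 1.87, 1.64 and 1.5, but its difference of 0.86 did not pass (adjusted p = 0.0869). Srxn1, Txnrd1 and Gclc passed without any 1 of the 6 arrays, and Gclm did not pass without oleic acid 1 h replicate 2 (adjusted p = 0.227) or without any other array except 4 h replicate 2. In saline lungs Srxn1, Txnrd1 and Gclc also rose, by 1.65, 1.30 and 1.46 (adjusted p = 0.00235, 0.00244 and 0.0153).

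The fifth Nrf2 target, Slc7a11, the cystine importer that supplies glutathione synthesis, was not well above background at 1 h on any array and was measured on 2 of 3 arrays at 4 h. It was at least 2.28-fold higher at 4 h, taking as the dim level on each array the lowest signal called above background there. It passed with an adjusted p of 0.015. The call was lost without 4 h replicate 3, 1 h replicate 1 or 1 h replicate 2 (adjusted p = 0.0565 for the last). Its levels did not climb steadily. They were -7.10, -6.54 and -7.08 at 1 h, -4.67 and -3.20 at 1.5 h, -7.20 and -6.54 at 3 h, and -3.74, -4.54 and -2.71 at 4 h. Its promoter and that of Chac1 are shown because Slc7a11 and Chac1 are both known targets of ATF4, the factor of the integrated stress response, whose amino acid response element (TGATGNAA, both strands, capitals) was searched after the values were seen. The Chac1 stretch is chr2:119350992-119351141 (+ strand), with the match 193 bases before the start, and the Slc7a11 stretch is chr3:50443614-50443763 (- strand), with matches 66 and 47 bases before it.
Chac1: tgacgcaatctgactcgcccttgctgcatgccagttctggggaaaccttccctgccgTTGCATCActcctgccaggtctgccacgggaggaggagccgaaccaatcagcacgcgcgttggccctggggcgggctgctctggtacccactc
Slc7a11: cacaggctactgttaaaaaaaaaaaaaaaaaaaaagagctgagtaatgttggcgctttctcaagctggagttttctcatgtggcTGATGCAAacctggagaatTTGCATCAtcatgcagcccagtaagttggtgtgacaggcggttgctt
These letters were common, in 3.97% of all windows and 3.09% of tested genes with a window. They stood in 4.07% of genes higher and 4.17% of genes lower at 4 h.

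Chac1, an enzyme that degrades glutathione and marks an active ATF4 arm, stood at 0.05, 0.33 and 0.17 at 1 h and 1.76, 2.13 and 2.63 at 4 h, a rise of 1.99 (1.35 to 2.62, 3.97-fold, adjusted p = 0.00201). Its levels at 1.5 h (-0.17 and -0.38) and 3 h (-0.80 and -0.19) lay below those of 1 h, so only the 4 h lungs were raised. Mthfd2, a mitochondrial enzyme of one-carbon metabolism and another ATF4 target, was also raised at 4 h and not at 3 h, with -2.40, -3.13 and -2.48 at 1 h, -2.59 and -1.95 at 1.5 h, -2.54 and -2.80 at 3 h and -0.59, -0.58 and -0.78 at 4 h (rise 2.02, 1.34 to 2.70, adjusted p = 0.00301). The 4 h lungs stood above every earlier oleic acid lung in both genes. Chac1 was the only 1 of 29 measured genes of the unfolded protein and integrated stress responses that passed. That is 3.45%, beside 1.38% of all features higher, and the median of the 29 was 0.27. Both genes passed with each array left out in turn. Saline lungs of 4 h were split for both, at 1.46 and -0.09 for Chac1 and -0.40 and -1.47 for Mthfd2, and the saline differences of 0.56 and 1.30 did not pass (adjusted p = 0.456 and 0.0719). The change after oleic acid minus that after saline was 1.43 (0.48 to 2.38) and 0.72 (-0.30 to 1.74), and neither of these passed.

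Genes of the p53 and apoptosis list rose in 6 of 24 cases (25%, beside 1.38% of all features) and fell in 0, with a median of 0.46. Trp53inp1, a p53-induced nuclear protein of the death and autophagy pathways, went from 2.28, 1.64 and 2.41 to 3.81, 3.58 and 3.32 (rise 1.46, 1.01 to 1.91, adjusted p = 0.00169). Plk3, a stress kinase, went from -0.05, -0.14 and -0.04 to 1.01, 0.90 and 0.93 (rise 1.02, adjusted p = 0.00518), and at 3 h it was higher still, at 2.08 and 2.23. Both genes separated the times completely and kept their calls without any 1 array. Cdkn1a, the cell cycle inhibitor p21, rose by 1.70 (adjusted p = 0.0168) from 2.05, 2.19 and 2.49 to 4.14, 4.29 and 3.42, and Fas, the death receptor, by 1.2 (adjusted p = 0.0162). The other two, chosen after their values were seen, were Mdm2, the ubiquitin ligase that degrades p53 (rise 0.64, adjusted p = 0.0379), and Sesn1, a sestrin that restrains growth signalling (rise 0.70, adjusted p = 0.0382). Without oleic acid 1 h replicate 2 only Trp53inp1 and Plk3 passed, and Cdkn1a, Fas, Mdm2 and Sesn1 gave adjusted p values of 0.0872, 0.105, 0.211 and 0.24. Those 4 also failed without several other single arrays, among them 4 h replicate 1 and 1 h replicate 1. With slide as a fixed term the median of the list was -0.10 and Fas stood at -0.024.

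Pdk4, which closes pyruvate dehydrogenase so that fatty acids are burnt in place of glucose, went from -0.49, -0.76 and 0.58 at 1 h to 2.61, 2.47 and 2.36 at 4 h, a rise of 2.70 (1.83 to 3.58, 6.52-fold, adjusted p = 0.0023). The 4 h lungs agreed closely and none overlapped with 1 h, and Pdk4 passed with each array left out in turn. Of 39 measured PPAR targets and genes of fatty acid oxidation, 3 rose (beside 1.38% of all features) and 0 fell, 29 had a difference above 0 and the median was 0.29. In 15 of them every 4 h lung lay above every 1 h lung, beside 9.55% of all features. Those that rose were Pdk4, Acot1, a cytosolic thioesterase that frees fatty acids from coenzyme A (rise 1.16, adjusted p = 0.0357), and Ppargc1a, the coactivator of mitochondrial biogenesis (rise 0.78, adjusted p = 0.0399). Angptl4, a PPAR target that inhibits lipoprotein lipase, lay at 3.73, 3.73 and 4.54 at 1 h and 6.06, 5.78 and 5.97 at 4 h without overlap, and its difference of 1.94 (0.73 to 3.16) had an adjusted p of 0.0726.

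Among 36 genes of fatty acid uptake and lipid droplets, 2 rose (beside 1.38% of all features) and 1 fell (beside 1.73%), with a median of 0.16. Pnpla2, the triglyceride lipase ATGL, rose from 2.99, 2.21 and 3.18 to 4.02, 4.12 and 4.43 (1.39, 0.85 to 1.93, adjusted p = 0.00797), and G0s2, the protein that inhibits that lipase, fell by 1.47 (interval -2.28 to -0.65, adjusted p = 0.0455) from 2.15, 2.42 and 1.93 to 1.19, -0.19 and 1.10. Oleic acid 4 h replicate 2 was the lowest lung for G0s2, which stood at 2.93 and 2.60 at 3 h, above all lungs of 1 h. Fitm2, needed for droplet formation, rose by 0.71 (adjusted p = 0.0452). Elovl1, which lengthens saturated fatty acids and is also a type 2 cell marker, fell by 0.79 (adjusted p = 0.03) from 6.95, 7.15 and 6.75 to 6.04, 6.56 and 5.86. It was the 1 of 19 genes of fatty acid synthesis and desaturation that passed (5.26%, beside 1.73% of all features). It was also the 1 of 26 type 2 markers that passed (3.85%). Of 25 genes of cholesterol synthesis and uptake 2 rose (8%, beside 1.38% of all features) and 0 fell, with a median of 0.07. Pmvk, a kinase of the mevalonate pathway and 1 of these risers, rose by 0.86 (adjusted p = 0.019). Fat cell markers, of which 0 of 17 measured passed, had means of 0.89, 1.23 and 1.33 at 1 h and 0.84, 1.26 and 2.64 at 4 h, highest on oleic acid 4 h replicate 3. That array also had the highest mean of the uptake and droplet list, with 1.85 beside 1.34 and 1.48 on the other 4 h arrays, and some genes stand in both lists. The part of fat cells in these results was not tested. Without oleic acid 1 h replicate 2 none of Acot1, Ppargc1a, Pnpla2, G0s2, Fitm2, Elovl1 and Pmvk passed (adjusted p = 0.0624 for Pnpla2 to 0.202 for G0s2), and each of them but Pnpla2 also failed without other single arrays, 1 h replicate 1 among them.

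Among genes that move ions and water across the alveolar wall, 3 of 19 rose (15.8%, beside 1.38% of all features) and 0 fell (median 0.07). Besides Sgk1 these were Atp1b1, a subunit of the sodium pump that drives fluid clearance (4.27, 3.97 and 4.43 at 1 h and 5.02, 5.14 and 5.03 at 4 h, rise 0.84, adjusted p = 0.0191), and Nedd4l, the ligase that removes the epithelial sodium channel from the surface (rise 0.82, adjusted p = 0.0486). The 4 h lungs lay above those of 1 h for both. With slide as a fixed term they gave -0.08 and -0.01, and both failed without oleic acid 1 h replicate 2 (adjusted p = 0.131 and 0.292) and without every other single array but 1 h replicate 3. Amotl2, an angiomotin of cell junctions, rose by 0.70 (adjusted p = 0.0157). It was the only 1 of 26 genes of tight and adherens junctions to pass (3.85%, beside 1.38% of all features). It failed without 1 h replicate 2 (0.0619), 4 h replicate 1 or 4 h replicate 3.

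Has1, which makes hyaluronan, the water-holding polymer of injured lung matrix, went from -2.83, -2.59 and -2.15 to -0.59, -0.10 and -0.84 (rise 2.01, 1.38 to 2.64, adjusted p = 0.0017), and at 3 h it was already at -0.21 and 0.05. All lungs of 3 h and 4 h stood above those of 1 h, and its call held without any 1 array. Areg, an epidermal growth factor receptor ligand of epithelial repair, stood at -2.63, -2.71 and -3.13 at 1 h and -0.71, 1.08 and -0.73 at 4 h (rise 2.70, 1.54 to 3.86, adjusted p = 0.0149). Oleic acid 4 h replicate 2 was far above the other 4 h lungs for Areg, and the call was lost without that array or without 1 h replicate 2 (adjusted p up to 0.0654 over the 6 omissions). Areg was the only 1 of 7 measured ligands of that receptor that passed (14.3%, beside 1.38% of all features).

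Thbs1, thrombospondin, a platelet and matrix protein that activates TGF-beta, rose from 1.46, 0.55 and 1.63 to 3.28, 3.69 and 2.74 (2.02, adjusted p = 0.0135). It was the 1 of 22 coagulation genes that passed (4.55%, beside 1.38% of all features). Lox, which cross-links collagen and elastin, rose from -1.27, -2.01 and -1.06 to 0.47, 0.02 and 0.52 (1.78, 1.13 to 2.44, adjusted p = 0.00612). It was the 1 of 27 hypoxia-induced genes that passed (3.7%, beside the same 1.38%). Gdf15, a stress cytokine, stood at -0.98, 0.41 and 1.57 at 4 h against -2.12, -2.25 and -1.92 at 1 h (rise 2.43, adjusted p = 0.0267), and its 4 h lungs were spread over more than 2 units. Pabpc1l, a poly(A)-binding protein of oocytes, rose by 2.44 (1.70 to 3.18, adjusted p = 0.00169), and Doc2b, a calcium sensor of vesicle release, by 2.61 (1.31 to 3.91, adjusted p = 0.0281). Of these 5 genes only Pabpc1l passed without oleic acid 1 h replicate 2 (0.0175), the others giving 0.0976 for Thbs1, 0.0511 for Lox, 0.126 for Gdf15 and 0.111 for Doc2b. Thbs1 was also lost without 4 h replicate 2, Gdf15 without 3 other arrays and Doc2b without 4 others.

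Of 18 measured B cell markers 12 fell and 0 rose, against 1.73% of all features, and every member had a difference below 0, from -1.97 to -0.10, with a median of -1.09. Bank1, a scaffold of B cell receptor signalling, went from 0.40, -0.04 and 0.21 at 1 h to -1.59, -2.01 and -1.19 at 4 h, a fall of 1.78 (interval -2.33 to -1.24, adjusted p = 0.00169). Cr2, the complement receptor of mature B cells, went from 0.46, 0.11 and 0.18 to -1.45, -1.42 and -0.76, a fall of 1.46 (interval -1.97 to -0.95, adjusted p = 0.00441). The times were far apart for both genes and both passed with each array left out in turn. Pax5, the factor that maintains B cell identity, fell by 1.97 (interval -2.69 to -1.24, adjusted p = 0.00612) and was well above background on 3 arrays at 1 h and 1 at 4 h. In whole lung, fewer cells of a type and less RNA per cell cannot be told apart.

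The B cell receptor subunits and Ms4a1, the CD20 antigen, chosen after their values were seen, moved with them. Cd79b stood at 5.29, 5.15 and 5.02 at 1 h and 3.95, 4.22 and 3.90 at 4 h (fall 1.13, adjusted p = 0.0191), and its partner Cd79a at 2.78, 2.85 and 2.65 and 1.54, 1.92 and 1.29 (fall 1.17, adjusted p = 0.0394). Ms4a1 stood at 2.50, 1.88 and 2.20 and 1.33, 0.56 and 1.53 (fall 1.05, adjusted p = 0.0355). For all 3 the 4 h lungs lay wholly below the 1 h lungs. Fcer2a, the low-affinity IgE receptor of B cells, fell by 1.64 (adjusted p = 0.0187), and Fcmr, the receptor of immunoglobulin M, by 1.25 (adjusted p = 0.0115). Ly6d, a surface protein of early B lineage and of some epithelia, was no member of the list and was among the 15 largest falls, from 4.13, 4.38 and 3.75 to 2.57, 2.14 and 2.36 (fall 1.73, adjusted p = 0.00253).

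The mean over the 18 B cell genes declined from between 0.91 and 1.07 at 1 h to between 0.53 and 0.81 at 1.5 h, between 0.17 and 0.62 at 3 h and between -0.19 and 0.01 at 4 h, and the ranges of 1.5 h and 3 h overlapped. Saline lungs had means between 0.71 and 1.10 at 1 h and between -0.63 and 0.20 at 4 h, with a median difference of -1.32 and 8 genes called lower. Leaving out oleic acid 1 h replicate 2 left 3 of the 12 calls, with a median of -1.13 over the list. The number of calls was between 3 and 9 over the 6 omissions. With slide as a fixed term the median was -0.07, and Fcer2a stood at 0.34, Cd79b at 0.09, Cd79a at 0.07, Cr2 at -0.04 and Bank1 at -0.83.

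Medians of other lymphocyte lists lay nearer 0. Of 21 T cell genes 20 lay below 0, with a median of -0.48 (-0.21 after median centring), and 1 passed (4.76%, beside 1.73% of all features). It was Cd8b1, a chain of the CD8 coreceptor, with a fall of 0.97 (adjusted p = 0.0224). Its levels went from -0.88, -0.83 and -1.04 to -1.79, -2.11 and -1.77. Lck, the kinase bound to CD4 and CD8, differed by -0.63 (adjusted p = 0.114) and Cd5, an inhibitory coreceptor, by -0.74 (adjusted p = 0.0711). Natural killer genes fell in 2 of 20 cases (10%, beside 1.73% of all features; median -0.44), which were Klre1, a lectin-like receptor (fall 1.40, adjusted p = 0.0262), and Xcl1, a chemokine made by natural killer and CD8 T cells, at least 2.02-fold lower at 4 h (adjusted p = 0.0226). Of 5 measured thymus genes 3 fell, beside the same 1.73%: Cd8b1, Ccr9, the gut-homing chemokine receptor (fall 1.14, adjusted p = 0.0313), and Mns1, a coiled-coil protein also found in ciliated and germ cells (fall 0.74, adjusted p = 0.0118). Cd209a, a lectin of dendritic cells, fell by 0.68 (adjusted p = 0.0382). It was the 1 of 14 dendritic and mast cell genes that passed (7.14%, beside 1.73% of all features). None of these genes passed without oleic acid 1 h replicate 2 (adjusted p = 0.0548 for Mns1 to 0.164 for Ccr9), and for all but Mns1 other single omissions also ended the call. Of 26 measured ciliated cell markers, a list without Mns1, 22 lay below 0 and 0 passed. Their median was -0.35 (-0.09 after median centring, and 0.08 in saline lungs). In 11 of them every 4 h lung lay below every 1 h lung, beside 14.7% of all features. Whether Mns1 moved with thymus or with ciliated cell genes was not tested.

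Of 28 endothelial markers 3 fell (beside 1.73% of all features) and 0 rose, and the median was -0.08 (0.19 after median centring). Aplnr, the receptor of apelin on capillary and venous endothelium, went from 1.08, 1.42 and 0.83 to -0.33, -0.61 and -0.61, a fall of 1.63 (interval -2.27 to -0.98, adjusted p = 0.00959). Its ligand Apln, made by capillary endothelium, fell by 0.70 (adjusted p = 0.0344), from 2.04, 2.24 and 2.28 to 1.74, 1.52 and 1.22. Calcrl, the receptor of adrenomedullin and calcitonin gene-related peptide, fell by 0.90 (adjusted p = 0.0324). It was also the only 1 of 23 vasoactive genes that passed (4.35%, beside 1.73% of all features). Cdh5, the adhesion molecule of endothelial junctions, was not lower, at 4.57, 4.89 and 4.50 at 4 h against 4.40, 3.82 and 4.40 at 1 h, and did not pass (adjusted p = 0.167). Aplnr, Apln and Calcrl failed without oleic acid 1 h replicate 2 (adjusted p = 0.066, 0.15 and 0.0655), Aplnr without that array alone, and with slide as a fixed term Apln was at 0.06.

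Among the other large falls, Plekha6, a pleckstrin homology domain protein, went from -0.95, -1.16 and -1.12 to -2.87, -2.51 and -2.81 (fall 1.66, interval -2.16 to -1.15, adjusted p = 0.00169). Dapl1, a small death-associated protein, fell by 1.59 (adjusted p = 0.00169), Cacna1i, a T-type calcium channel, by 1.54 (adjusted p = 0.00201) and Cstad, known from calcineurin signalling, by 1.36 (adjusted p = 0.00584). These 4 passed with each array left out in turn. Lefty1, an inhibitor of nodal signalling, fell by 1.52 (adjusted p = 0.0125), Wnt7a, a Wnt ligand, by 1.42 (0.0209) and Kank4, a regulator of the actin skeleton, by 1.41 (0.015). Those 3 failed without oleic acid 1 h replicate 2 (adjusted p = 0.0713, 0.141 and 0.0789) and without 4 h replicate 2. All of these genes had every 4 h lung below every 1 h lung.

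For mediators often followed in acute lung injury no call was made between 4 h and 1 h. No gene passed among 15 measured cytokines, 8 neutrophil chemokines, 18 feedback genes of NF-kappaB, 12 endothelial adhesion molecules, 24 acute phase genes and 28 neutrophil markers, with medians of -0.12, 0.29, -0.14, 0.10, 0.19 and -0.14. Il6, the main inducer of acute phase proteins, stood at -3.36, -5.78 and -6.12 at 1 h and -5.22, -4.09 and -4.48 at 4 h, overlapping, and was well above background on only 1 of these arrays (difference 0.49, -1.55 to 2.53, adjusted p = 0.85). At 3 h both arrays were far higher, at -1.07 and -1.47. Tnf, an early macrophage cytokine, stood at -2.41, -2.46 and -3.00 and -2.95, -3.88 and -3.82 (difference -0.92, adjusted p = 0.48) and Il1b, the inflammasome cytokine, at 1.78, 1.52 and 0.64 and 0.41, 0.98 and 1.42 (difference -0.38, adjusted p = 0.751). Ccl2, which draws monocytes, stood at -1.83, -1.10 and -1.81 at 1 h, at 0.17 and 0.34 at 3 h and at -2.47, -2.85 and -2.18 at 4 h (difference -0.92, adjusted p = 0.494), so 3 h was above both compared times. Their intervals are wide, and differences that lie within them were not detectable with 3 arrays a group. After median centring the medians of the cytokines, of the NF-kappaB feedback genes and of the neutrophil markers were 0.15, 0.13 and 0.13.

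Cxcl1, a neutrophil attractant, was above background on all 3 arrays at 1 h and on none at 4 h, with levels of -4.55, -2.91 and -4.72 and -5.69, -5.16 and -4.25, and did not pass (adjusted p = 0.762). Of 21 monocyte and lymphoid chemokines, 2 fell (9.52%, beside 1.73% of all features): Ccl12, a monocyte attractant (-1.32, -1.06 and -1.59 at 1 h and -2.75, -2.25 and -3.42 at 4 h, fall 1.48, adjusted p = 0.0324), and Cx3cl1, fractalkine (fall 0.64, adjusted p = 0.0499). Their median of -0.24 was 0.03 after median centring. Interferon-stimulated genes lay below 0 in 22 of 28 cases, with a median of -0.30, which was -0.03 after median centring. Among them 2 fell (7.14% of the list, beside 1.73%). These were Ifit3, an antiviral RNA-binding protein (fall 0.73, adjusted p = 0.029), and Usp18, which removes ISG15 and damps the receptor (fall 0.72, adjusted p = 0.029). Without oleic acid 1 h replicate 2 these 4 did not pass (adjusted p = 0.161, 0.199, 0.0624 and 0.164), nor without 4 h replicate 3 or 1 h replicate 1. Lists with no gene called in either direction also included 26 heat shock genes, 16 core clock genes, 35 cell cycle genes, 44 cytosolic ribosomal proteins, 40 subunits of the respiratory chain, 38 of the proteasome and 19 collagens, all with medians between -0.19 and 0.21.

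**Figure D3:**
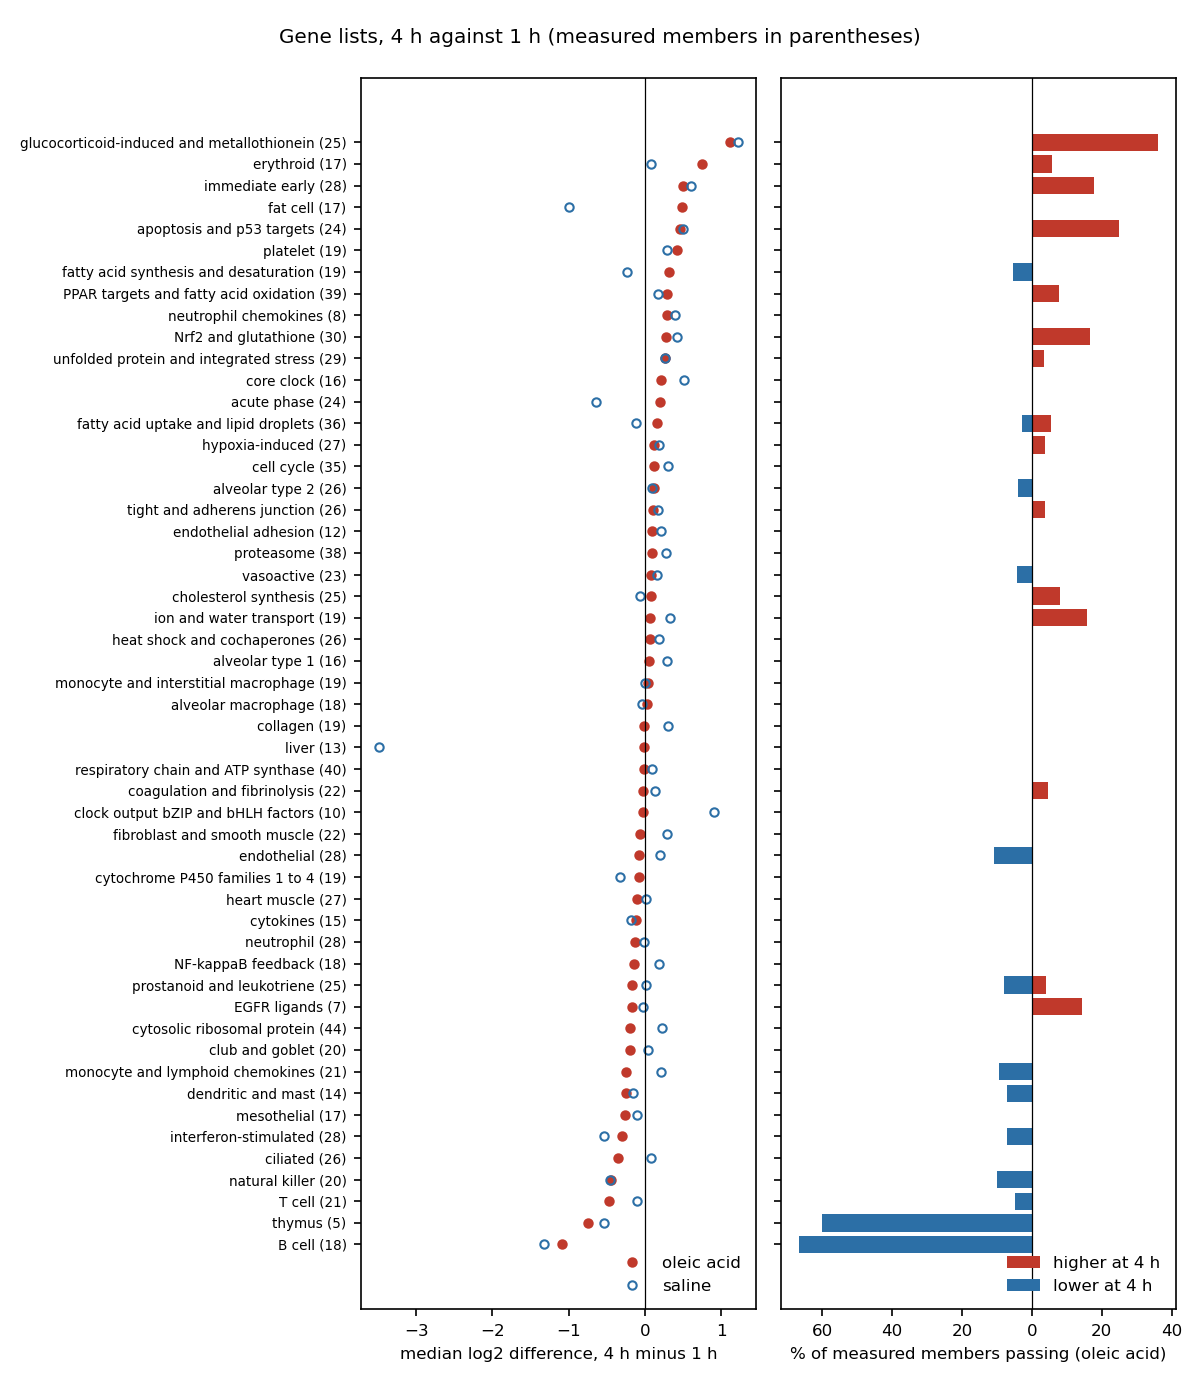
Left, median log2 difference (4 h minus 1 h, horizontal axis) of 52 gene lists in oleic acid lungs (filled red points) and saline lungs (open blue points), with the number of measured members in parentheses. Right, the percentage of measured members that passed in oleic acid lungs, higher to the right and lower to the left; the glucocorticoid and metallothionein list has the highest median (1.12) and the B cell list the lowest (-1.09).

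Red cell transcripts had a higher mean level in each 4 h lung. The mean over 17 measured erythroid genes was between 0.21 and 0.90 at 1 h and between 1.28 and 1.45 at 4 h, with a median difference of 0.74. Of the 17, 1 passed as higher (beside 1.38% of all features) and 12 had every 4 h lung above every 1 h lung (beside 9.55%). Hbb-bs, an adult beta-globin, stood at 4.40, 4.69 and 4.23 at 1 h and 5.84, 5.49 and 5.67 at 4 h and did not pass (difference 1.23, adjusted p = 0.0606). In saline lungs the median difference of the 17 was 0.08, with means between 0.71 and 1.66 at 1 h and between 1.18 and 1.54 at 4 h. The oleic acid lungs of 4 h thus lay within the range of the saline lungs. The part of blood held in the lungs in any other result was not tested.

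Some genes were well above background at one time only, so that only a bound can be given. Tmem247, a membrane protein known mainly from testis, was at least 10.1-fold higher at 4 h, with -1.90, -0.43 and -1.91 on the 4 h arrays, and rose in saline too (adjusted p = 0.0017 with oleic acid and 0.00244 with saline). Apol10a, an apolipoprotein L gene, was at least 2.37-fold higher (adjusted p = 0.0371), above background on 3 arrays at 4 h and none at 1 h. In the other direction Tex14, an intercellular bridge protein of germ cells, was at least 2.69-fold lower (adjusted p = 0.0489), Dclk3, a doublecortin-like kinase, at least 2.45-fold (0.00291) and Shisa2, an endoplasmic reticulum protein of Wnt and FGF receptor maturation, at least 2.31-fold (0.0124). Rasal1, a Ras-inactivating protein, was at least 1.94-fold lower (0.0157, but at 0.47 with slide as a fixed term) and Ppm1e, a phosphatase of the CaM kinases, at least 1.92-fold (0.0154), again on 3 arrays against none. Over all features, 13 of those higher were above background on no 1 h array and 30 of those lower on no 4 h array. Of the genes given here as bounds, only Tmem247 and Dclk3 passed with each of the 6 arrays left out in turn.

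The arrays of 1.5 h and 3 h stood in the fit and added to its estimate of spread. Their levels did not enter the differences between 4 h and 1 h. For the 402 risers measured at all times, the median share of the change from 1 to 4 h that had been covered was 21.7% at 1.5 h and 57.7% at 3 h, and for the 507 fallers 28.4% and 41.9%. The 3 h array of slide 2 and that of slide 3 gave medians of 51.8% and 62.9% for the risers. For the fallers they gave 40.8% and 41.2%. At 3 h, 35 of the risers and 30 of the fallers already lay beyond their 4 h level, Fos, Egr1, Dusp1 and Plk3 among the former. The share is computed from features chosen for their difference between 1 and 4 h. That choice alone tends to put other arrays between the end points, so the shares cannot show a course over time. No test was made.

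Most features that passed in oleic acid lungs moved in the same direction in saline lungs of the same slides. From 1 to 4 h 336 features were higher (1.15%) and 199 lower (0.679%) after saline, and the 223 features called under both injections, of 912 and of 535, all had the same sign. Of the 402 oleic acid risers, 391 (97.3%) also had a positive saline difference, against 54.7% of all features, and 152 were called there. Of the 507 fallers, 484 (95.5%) had a negative one, against 45.3% of all features, and 71 were called there. The median differences were 0.94 with oleic acid and 0.76 with saline for the risers, and -0.83 and -0.46 for the fallers. Saline 1 h replicate 1 had 81.7% of spots above background, and its levels correlated with those of replicates 2 and 3 at 0.937 and 0.923. Means over 13 measured liver genes were 2.61, 4.81 and 0.34 on the saline arrays of 1 h and -0.16 and -1.15 on those of 4 h. The oleic acid and saline arrays are different mice but share slide 1 at 1 h and slide 3 at 4 h. Hours after injection and anaesthesia and the slide cannot be told apart in either treatment.

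**Figure D4:**
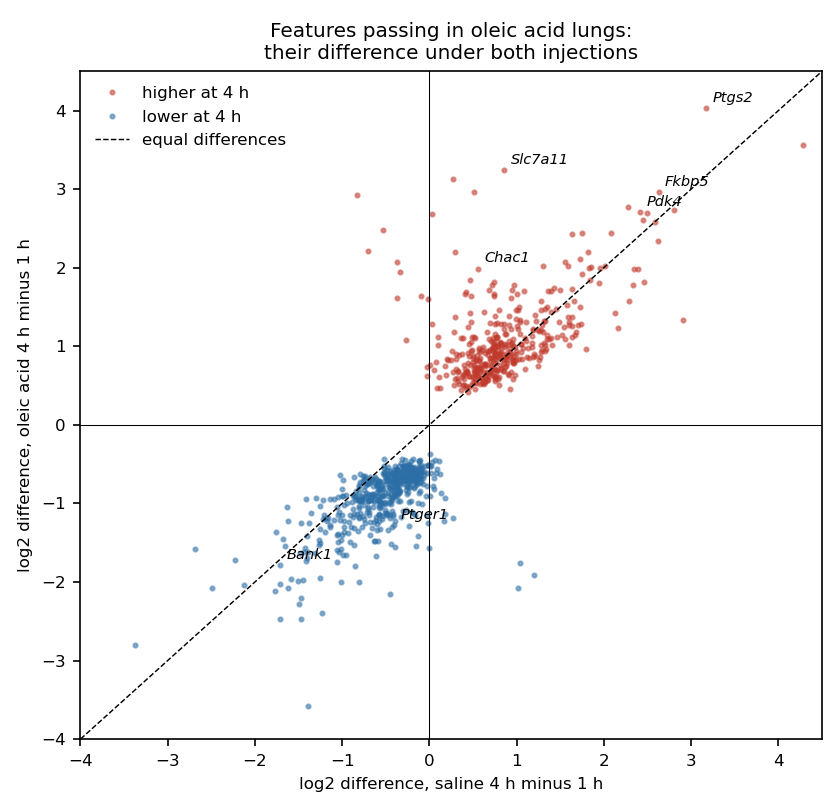
Log2 difference from 1 to 4 h in oleic acid lungs (vertical axis) against that in saline lungs (horizontal axis) for the features that passed in oleic acid lungs, red where higher and blue where lower at 4 h, with a dashed line where both differences are equal. Of the risers 391 of 402 lie to the right of 0 and of the fallers 484 of 507 to the left, and Chac1 and Slc7a11 lie above the line.

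Whether the lungs moved differently with oleic acid was tested as the change after oleic acid minus the change after saline. No feature passed (0 of 29298, 0%, limma), the lowest adjusted p was 0.104, and before adjustment 1268 features (4.33%) had a p under 0.05. For the named genes that passed within oleic acid lungs, the median half-width of the interval of this difference was 0.86, so differences between treatments within that width were not detectable here. The largest of the well-measured ones was Chac1, whose rise exceeded that in saline by 1.43 (0.48 to 2.38, unadjusted p = 0.00538). Ptger1 fell further than in saline, by -0.87 (-1.46 to -0.28, unadjusted p = 0.00589), and Lox rose further, by 1.07 (0.08 to 2.05, unadjusted p = 0.0352). Ptgs2 (0.86, 0.07 to 1.65), Lefty1 (-1.08, -2.03 to -0.13), Slc7a11 and Apol10a also had unadjusted p values under 0.05, 7 of 81 named passing genes in all. For all of them the adjusted p was 1.00 when rounded, and none counts as a difference between treatments.

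Other leading genes gave differences closer to each other under both injections. Sgk1 differed by 0.11 (-0.50 to 0.71), Srxn1 by -0.07 (-0.69 to 0.54) and Txnrd1 by -0.12 (-0.63 to 0.39). Maff differed by 0.05 (-0.88 to 0.98), Bank1 by -0.07 (-0.89 to 0.74) and Cr2 by 0.22 (-0.54 to 0.99). These intervals leave room for a difference of up to about 1 unit in either direction. The saline side itself was uneven. Dbp, a clock output factor, stood at 1.13, 1.73 and 5.91 on the saline arrays of 1 h but at 5.78, 6.00 and 5.67 on the oleic acid arrays. Dbp was uneven between the oleic acid times too. It stood at 1.83 and 3.20 at 1.5 h, 4.97 and 5.08 at 3 h and 4.65, 4.36 and 4.96 at 4 h, and why was not tested. Saline 4 h replicate 2 was far above its partner for Il6 (-5.50 and -0.16 for replicates 1 and 2), Cxcl1 (-6.46 and 0.81) and Ccl2 (-3.45 and 0.73). Without saline 4 h replicate 1 the difference of changes was called for 8 features, without replicate 2 for 1, and without saline 1 h replicates 1 and 2 for 2.

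The number of calls rested on single arrays more than on most settings. Without oleic acid 1 h replicate 2, 40 features were higher and 90 lower, and 129 of the 912 calls of the whole comparison were kept. Without any of the other 5 arrays the counts were between 133 and 604 higher and between 170 and 463 lower. The 24 named genes that passed with each of the 6 arrays left out in turn were the risers Ptgs2, Pdk4, Pabpc1l, Mthfd2, Has1, Maff, Chac1, Sgk1, Srxn1, Txnrd1, Gclc, Trp53inp1, Plk3 and Tmem247 and the fallers Bank1, Ly6d, Plekha6, Dapl1, Cacna1i, Cr2, Cstad, Pax5, Ptger1 and Dclk3. In the omissions all 912 calls kept their direction. They were chosen for their difference on these same arrays, so this outcome was nearly fixed in advance. Fitting the 6 oleic acid arrays alone gave 0 higher and 0 lower (3967 features had an unadjusted p under 0.05), and fitting all 31 arrays gave 5 and 4, while quantile normalization and the authors' own value table gave 358 and 427, and 374 and 441.

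**Figure D5:**
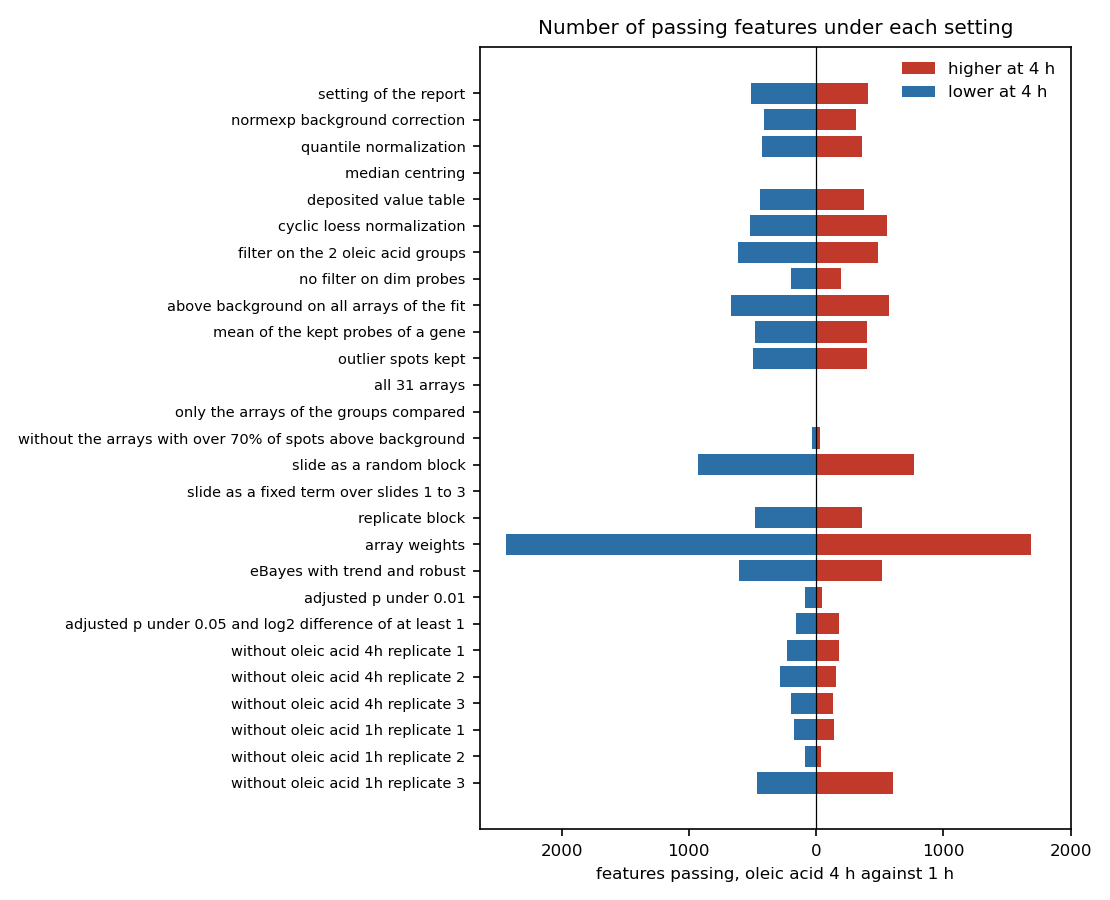
Number of features passing between 4 h and 1 h in oleic acid lungs (horizontal axis, higher at 4 h to the right in red, lower to the left in blue) under each setting (vertical axis). The setting of the report gave 404 and 508; array weights gave the most (1691 and 2435), and the fit to the compared groups alone gave 0.

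A term for slide could be fitted because saline 1.5 h spans slides 1 and 2 and oleic acid 3 h spans slides 2 and 3. With it, over slides 1 to 3, 1 feature was higher and 0 lower, the median standard error rose from 0.27 to 0.72, and 837 of the 912 calls kept their direction. Ptgs2 stood at 3.78, Srxn1 at 2.05, Chac1 at 1.51, Pdk4 at 1.37, Mthfd2 at 1.25 and Ptger1 at -1.25 in that fit, and none of them passed. Other genes stood near 0 there, among them Pnpla2 (0.09), Dusp1 (0.07), Ppargc1a (0.03) and Ccr9 (-0.01), and Aplnr stood at -0.30. That fit rests on 1 pair of arrays for each step between slides. Saline 1.5 h replicate 2, an array of such a pair, had 72.2% of spots above background. With slide as a random block the estimated correlation within a slide was -0.05, and 766 features were higher and 930 lower.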

How the data were processed

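RNA of 31 whole lungs, labelled with Cy3, was hybridised to Agilent mouse arrays. The scanner files deposited by the authors hold intensity values from Feature Extraction 10.5.1.1, corrected for background by that software per the file headers, and 0 or 1 flags deposited with them. The authors' deposited table holds log2 values that share one distribution, its background treatment not being given in the sources used here.

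In R 4.3.3 (limma 3.58.1, data.table, version 1.17.8) each array's 75th percentile was subtracted from the log2 processed signal, spots with an outlier flag were dropped, and spots of a probe were averaged. A probe was kept where all arrays of 1 or more of the 12 groups had it well above background, and each gene took its brightest kept probe. The 12 group means were fitted to 29 arrays, leaving out replicate 3 of oleic acid 1.5 h and replicate 2 of oleic acid 3 h (spike-in slopes of 1.66 and 0.751), neither of them compared here. Benjamini-Hochberg adjustment of p-values ran over all features, with a threshold of 0.05. Array number limits the precision. The p-values rest on the spread between mice within the 12 groups of the fit, most of them not compared here. Saline 1.5 h and oleic acid 3 h among these groups span slides. The p-values do not account for a shift between slide 1 and slide 3.

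Named genes were the 15 largest rises and falls without overlap, up to 6 genes a direction with a bound, up to 4 of each of 52 lists by p, and a panel of mediators. Other genes are marked where named, and some genes are not reported here. The comparison, its members and lists were chosen with earlier results of these data known. Alternatives were background correction, normalization, filters, probe summaries, arrays in the fit, slide, replicate number and moderation. In simulated data of 28845 features, some genes were changed by 0.5, 1 or 2 log2 units between oleic acid 4 h and 1 h. Of them 6.06%, 49.3% and 70.1% were recovered in that order, with 2 false calls of 86. Simulated noise was independent, with the same spread on every array, no shift between slides and no deviating array. The simulated false calls therefore do not measure how many calls of the real comparison are false.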

Additional observations from a re-analysis of the deposited data

How the results depend on the processing

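In the order oleic acid higher, oleic acid lower and saline called, the counts of 404, 508 and 535 became 11, 2 and 6 with median centring, 199, 197 and 131 without a filter on dim probes, 5, 4 and 9 with all 31 arrays, 0, 0 and 0 with only the arrays of the groups compared (fewer residual degrees of freedom), 28, 33 and 32 leaving out arrays whose spots were above background in over 70%, 766, 930 and 964 with slide as a random block, 1, 0 and 0 with slide as a fixed term, 49, 90 and 57 at an adjusted p under 0.01, and 180, 161 and 295 with a log2 difference of at least 1. Array weights gave 1691 higher and 2435 lower. Saline calls were 252 with normexp, 196 with quantile normalization, 264 in the deposited table, 346 with cyclic loess (chosen after seeing the data, 557 higher and 522 lower) and 11 without saline 1 h replicates 1 and 2 (also chosen after seeing the data). Leaving out single arrays gave between 40 and 604 higher, between 90 and 463 lower, between 114 and 635 saline calls and between 0 and 8 calls of the difference of changes. That difference was otherwise called for 1 feature with quantile normalization, 1 with array weights, 2 without saline 1 h replicates 1 and 2, and 0 in the other settings. Why the counts moved was not tested.

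With slide as a fixed term the sign turned for Fkbp5 (-0.15), Hif3a (-0.0024), Klf15 (-0.67), Fas (-0.024), Atp1b1 (-0.081), Nedd4l (-0.0090), Fcer2a (0.34), Apln (0.061), Rasal1 (0.46), Cd79a (0.070), Cd79b (0.091), Tnf (0.53) and Nr4a1 (0.28). Nr4a1 was 0.15 with median centring, and Il6 was -0.56 with array weights, and between -0.025 (without oleic acid 1 h replicate 3) and 1.35 (without oleic acid 1 h replicate 1) when single arrays were left out. No other named gene changed sign in any setting. Relative to the median of all features of -0.09, median centring moved it to 0.18, and quantile normalization and cyclic loess to 0.02. Replicate numbers were shared by the times, but same-numbered arrays deviated together with correlations of only 0.317, 0.0815 and 0.0817, so they do not pair mice, and a replicate block gave 364 higher, 483 lower and 472 saline calls. Signal over background limits 13 calls of higher genes and 30 of lower genes to bounds.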
